A study of Homo sapiens with 4 samples.

Results

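Human olfactory receptor (OR) genes lie in dense tandem clusters, and the largest of these clusters were followed through Hi-C contact maps of human fibroblasts. The members were the genes whose symbol is OR followed by a digit in 5 blocks of the hg19 genome, of which 4 lie on chromosome 11 and 1 on chromosome 1. These blocks held 402 of the 860 OR genes annotated on the 22 autosomes and X. Of the 402, 220 were annotated as protein coding and 182 as pseudogenes or other types. Hi-C ligates fragments of DNA that were neighbours in the nucleus, and the maps give 1 value for each pair of bins of about 200 kb. The blocks overlapped 78 bins, of which 74 had enough listed pairs to be kept. Among the kept bins, 49 held the start of at least 1 OR gene and are called OR bins. The study asked how HMGA1, an abundant chromatin protein with AT-hooks that bind AT-rich DNA, shapes chromatin during oncogene-induced senescence (OIS).

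All 4 conditions used IMR90, a normal human lung fibroblast line, carrying an inducible ER:HRAS G12V fusion protein. Grow cells were proliferating and received no 4-hydroxytamoxifen (4OHT). OIS cells had RAS switched on by 100 nM 4OHT for 6 days. Grow-shA1 and OIS-shA1 cells also carried a miR30-type short hairpin against HMGA1, and were otherwise treated like Grow and OIS cells respectively. Each condition had 1 map. Both maps with shA1 pooled 2 samples each. The Grow and OIS maps were taken by the same group from its earlier work and match no sample listed here. An effect of shA1 and a difference between the data sets therefore cannot be told apart, and with 1 map per condition no comparison below has a test. The SDs given below are over pairs or bins of 1 map and are not errors between replicates. The paper states read totals for the shA1 conditions alone, larger for Grow-shA1 than for OIS-shA1. Depth can be compared across all 4 maps only as the share of pairs that hold a value. On chromosome 11 this share was 92.4% in Grow, 88.2% in Grow-shA1, 82.2% in OIS and 80.6% in OIS-shA1. On chromosome 1 it was 84.4%, 78.4%, 71.1% and 70.4%, respectively. A contact map holds no expression values, so the fibroblast label could not be checked against markers.

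OR genes encode G protein-coupled receptors that detect odorants. Each olfactory sensory neuron expresses a single one of them, and in those neurons the silent clusters are packed in heterochromatin and gather in the nucleus. In fibroblasts most OR genes are silent. Class I receptors, the families OR51, OR52, OR55 and OR56, are encoded at 11p15.4 only, whereas class II receptors are spread over many chromosomes. In Hi-C data, active chromatin (compartment A) and inactive chromatin (compartment B) each prefer contacts with their own kind. In OIS, heterochromatin can gather into senescence-associated heterochromatic foci, and HMGA1 is a component of these foci.

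The 5 blocks differed in size and in gene content. The 11p15.4 block (chr11:4199603-8000926 by its bins) held 118 OR genes, 69 of them protein coding, with 102 class I and 16 class II genes. The 11p11 block (chr11:47999983-51576264) held 37 OR genes, all of family OR4, of which 11 were protein coding. The 11q11-q12 block (chr11:54694580-60000542) was the richest with 147 OR genes, 71 of them protein coding, led by 76 genes of family OR5 and 27 of OR4. The 11q24 block (chr11:123398218-124601150) held 44 OR genes, 24 protein coding, with 26 genes of family OR8 and 12 of OR10. The 1q44 block (chr1:247401137-249059618) held 56 OR genes, 45 protein coding, of which 43 belonged to family OR2. The kept OR bins numbered 15, 7, 17, 5 and 5 in this order of blocks and held 389 of the 402 genes. The other 13 genes start in 2 bins at the end of 1q44 that had too few listed pairs.

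Since HMGA1 prefers AT-rich DNA, the sequence around OR gene starts is shown for 1 protein-coding gene of the most OR-rich bin in each block. Each sequence runs from 250 bases before to 50 bases after the annotated start in GRCh37, read 5′ to 3′ on the strand of the gene, and capitals mark its longest run of A and T. The same window of ILK, which encodes integrin-linked kinase and lies in the 11p15.4 block, is shown for contrast. Their positions are chr11:4825561-4825860 on the minus strand for OR52R1, chr11:48510095-48510394 on the plus strand for OR4A47, and chr11:55860534-55860833 on the plus strand for OR8I2. They are chr11:123814496-123814795 on the minus strand for OR6T1, chr1:248058639-248058938 on the plus strand for OR2W3, and chr11:6624688-6624987 on the plus strand for ILK.
OR52R1: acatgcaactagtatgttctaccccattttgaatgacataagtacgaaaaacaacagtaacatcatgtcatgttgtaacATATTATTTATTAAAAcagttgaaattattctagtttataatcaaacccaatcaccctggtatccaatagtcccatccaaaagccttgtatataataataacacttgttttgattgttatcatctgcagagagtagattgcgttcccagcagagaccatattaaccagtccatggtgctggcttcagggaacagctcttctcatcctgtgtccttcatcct
OR4A47: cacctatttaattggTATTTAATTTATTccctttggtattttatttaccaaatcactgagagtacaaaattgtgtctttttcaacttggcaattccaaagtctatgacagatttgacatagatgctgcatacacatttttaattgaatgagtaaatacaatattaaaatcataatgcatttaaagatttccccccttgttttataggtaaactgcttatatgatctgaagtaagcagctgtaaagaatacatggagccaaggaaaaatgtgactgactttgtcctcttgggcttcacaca
OR8I2: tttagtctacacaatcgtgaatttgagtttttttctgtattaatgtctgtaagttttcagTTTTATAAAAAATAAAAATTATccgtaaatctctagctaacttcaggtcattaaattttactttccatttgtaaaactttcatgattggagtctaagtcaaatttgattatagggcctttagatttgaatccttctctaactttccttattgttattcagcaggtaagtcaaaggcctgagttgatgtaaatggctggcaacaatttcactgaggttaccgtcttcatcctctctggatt
OR6T1: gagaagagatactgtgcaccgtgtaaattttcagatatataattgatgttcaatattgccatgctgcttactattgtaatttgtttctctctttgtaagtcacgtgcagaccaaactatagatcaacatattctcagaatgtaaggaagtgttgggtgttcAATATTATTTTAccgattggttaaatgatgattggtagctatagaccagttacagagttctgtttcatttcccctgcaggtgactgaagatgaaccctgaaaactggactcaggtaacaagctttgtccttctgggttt
OR2W3: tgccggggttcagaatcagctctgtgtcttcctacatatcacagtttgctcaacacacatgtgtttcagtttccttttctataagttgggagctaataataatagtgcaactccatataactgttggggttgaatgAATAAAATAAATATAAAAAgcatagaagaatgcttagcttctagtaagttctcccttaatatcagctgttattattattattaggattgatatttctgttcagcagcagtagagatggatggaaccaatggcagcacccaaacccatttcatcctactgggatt
ILK: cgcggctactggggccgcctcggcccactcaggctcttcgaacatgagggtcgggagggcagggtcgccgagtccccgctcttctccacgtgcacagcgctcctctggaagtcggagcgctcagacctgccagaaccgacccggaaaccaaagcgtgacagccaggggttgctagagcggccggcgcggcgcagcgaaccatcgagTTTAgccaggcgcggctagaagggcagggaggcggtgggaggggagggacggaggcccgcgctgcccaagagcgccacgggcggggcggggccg

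The 5 OR windows had GC contents of 36.7% (OR52R1), 32% (OR4A47), 32% (OR8I2), 37.3% (OR6T1) and 37% (OR2W3), against 71.3% for ILK. Their longest A/T runs spanned 16, 13, 22, 12 and 19 bases, and that of ILK spanned 4. Over the 220 protein-coding OR genes of the blocks, the median GC content of these 300 bases was 37.3%, whereas it was 60.7% over 19683 protein-coding genes outside the OR families. The 127 other protein-coding genes inside the blocks lay between, with a median of 51.7%. An A/T run of at least 15 bases was found in 33 of the 220 OR windows (15%). It was found in 7.09% of the 127 other windows of the blocks and in 5.50% of windows outside the OR families. Among blocks the median GC content was lowest at 11q11-q12 (34.3%) and highest at 11q24 (40%). Class I windows (57 genes) had a median GC content of 39.7% and class II windows (163 genes) of 37%. These are counts of letters and say nothing of HMGA1 binding. In each of the 5 OR windows shown, the bases from the annotated start begin with ATG, the start codon. Those of ILK do not. The annotated start of these 5 genes thus lies at coding sequence, and their windows need not cover promoters. Whether this holds for the rest of the 220 genes was not tested. The GC contrasts with ILK and with other genes may therefore compare unlike regions.

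Nearly all OR bins lay in compartment B in every map. The compartment score used here is the first principal component of the contact correlations of a chromosome, scaled to a root mean square of 1 and positive for A. The mean score of the 49 OR bins was -1.02 in Grow, -0.976 in Grow-shA1, -1.05 in OIS and -0.960 in OIS-shA1. The number of OR bins in A was 3, 4, 5 and 6 in these maps. Other B bins of chromosome 11 outside the blocks (308 bins, B in Grow) averaged -0.962, -0.983, -0.719 and -0.758, and the 557 of chromosome 1 averaged -0.965, -0.968, -0.760 and -0.820. The 134 OR bins elsewhere in the genome averaged -0.447 in Grow, with 43 of them in A.

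Among OR bins grouped by their number of OR genes, the richest class had the lowest mean score. Bins with 10 or more OR genes (18 bins) averaged -1.16 in Grow and -1.27 in OIS. Bins with 5 to 9 (19 bins) averaged -0.988 and -1.10, and bins with 1 to 4 (12 bins) averaged -0.872 and -0.650. Mean GC content went the same way along these classes, at 37.3%, 38.8% and 40.4%, and the part of base composition in the order was not tested. OR bins without any other protein-coding gene (24 bins) averaged -1.14 in Grow, and OR bins with such a gene (25 bins) averaged -0.907. Block bins with neither an OR gene nor another protein-coding gene (8 bins) were lower than the richest OR bins, at -1.32 in Grow and -1.40 in OIS. At 11p15.4, the 11 bins with class I genes averaged -0.890 in Grow, -0.818 in Grow-shA1, -0.860 in OIS and -0.820 in OIS-shA1. The 4 bins there with class II genes alone averaged -0.672, -0.576, -0.489 and -0.389, which was closer to 0 in each map.

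Among blocks, 11p15.4 had mean OR bin scores of -0.832 in Grow, -0.753 in Grow-shA1, -0.761 in OIS and -0.705 in OIS-shA1. The 11p11 block had the lowest mean in Grow, with -1.35, -1.30, -1.44 and -1.39 in the same order. The 11q11-q12 block had -0.962, -0.890, -0.942 and -0.795, and 11q24 had -1.14, -1.14, -0.992 and -1.09. The 1q44 block had -1.22, -1.32, -1.79 and -1.55. Chromosome 1 scores followed base composition weakly in OIS (r = 0.0998 over 987 bins, against 0.283 in Grow). With a component computed for each chromosome arm, 1q44 had means of -1.34, -1.29, -1.45 and -1.43, so the gap between Grow and OIS was much smaller, and smaller than that of 11p15.4, which had -0.916 in Grow and -0.773 in OIS by this score. All 5 OR bins of 1q44 lay in B in each map by either score. Over all 49 OR bins the arm score averaged -1.04 in Grow, -0.973 in Grow-shA1, -0.985 in OIS and -0.917 in OIS-shA1. By this score the OIS mean lay above the Grow mean, so the sign of their difference is not settled.

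**Figure D1:**
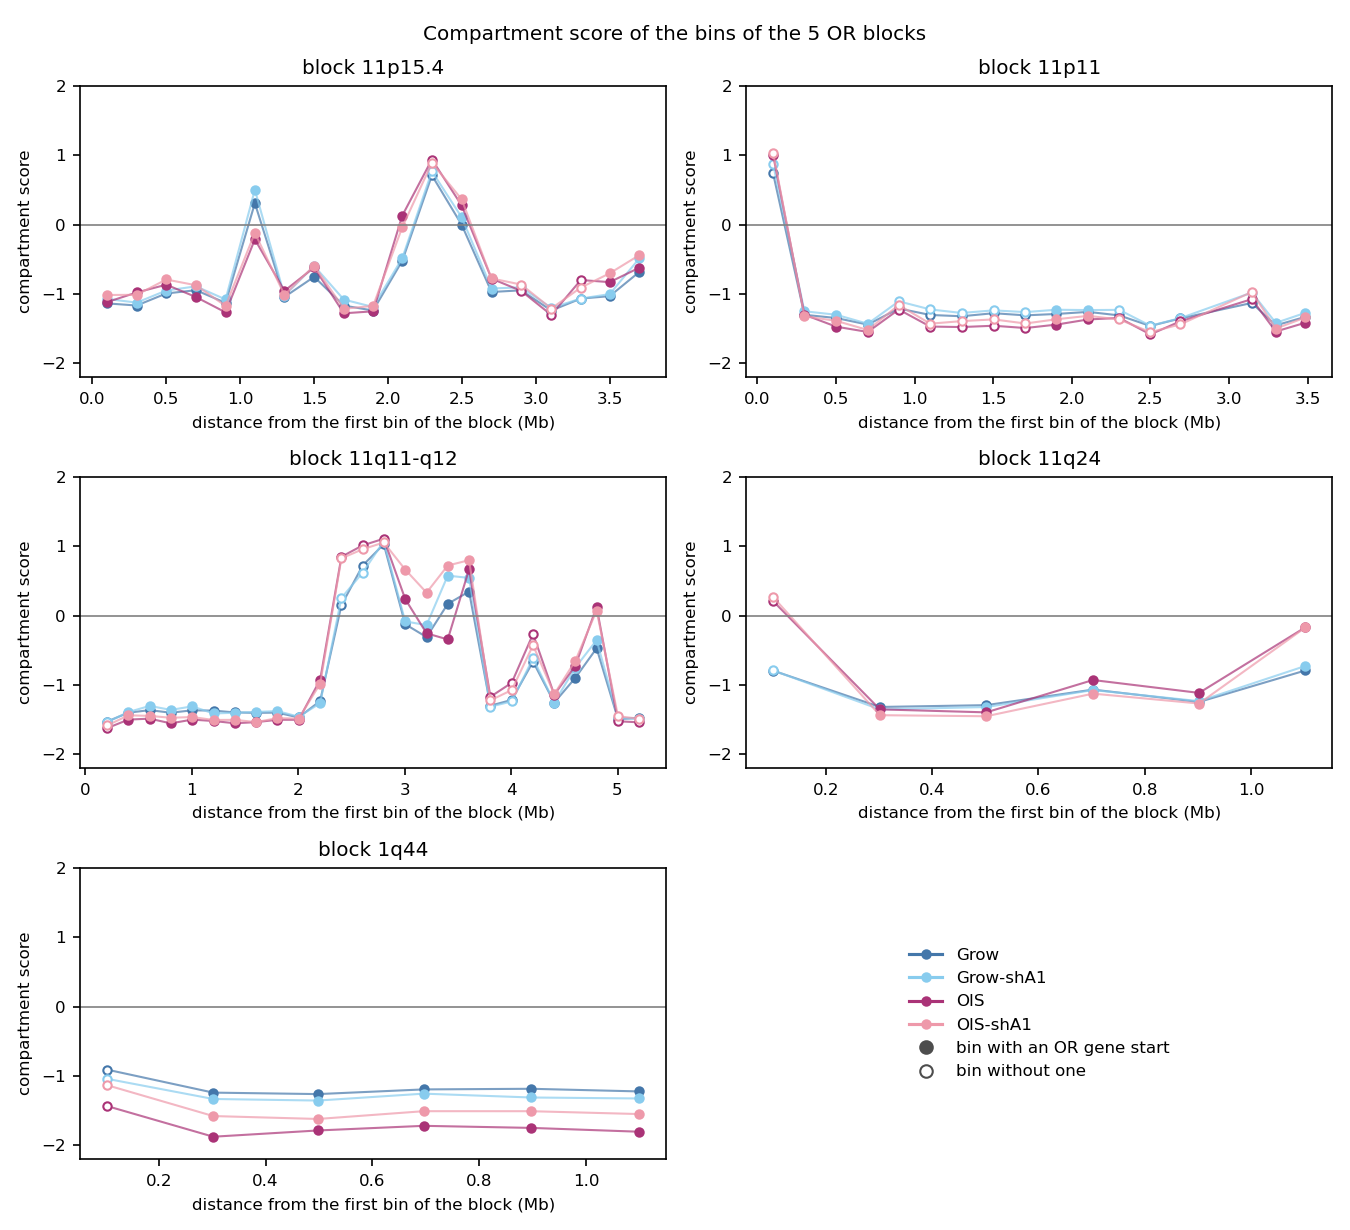
Compartment score (vertical axis, positive for A and negative for B) of the kept bins of each block against distance in Mb from the first bin of the block (horizontal axis), with 1 line per map. Filled points are bins with OR genes and open points are bins without. The blocks lie mostly below 0, apart from the bins around OR10W1 in 11q11-q12 and a few bins with other genes, and the 1q44 values in OIS lie furthest below those in Grow.

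The OR bin with the most OR genes in each block stayed in B in all maps. At 11p15.4 the bin chr11:4799791-5002111 held 17 OR genes (the first in order being OR51N1P, OR52Y1P, OR52R1, OR51F2 and OR51A8P) and had scores of -0.947 in Grow, -0.891 in Grow-shA1, -1.04 in OIS and -0.875 in OIS-shA1. At 11p11 the bin chr11:48398564-48604500, with 10 OR genes including OR4C2P and OR4A47, had -1.35, -1.30, -1.47 and -1.39. At 11q11-q12 the bin chr11:55801389-55999276, with 16 OR genes including OR5J1P and OR8I2, had -1.37, -1.41, -1.52 and -1.51. In these 3 bins the OIS score was the lowest of the 4 maps. At 11q24 the bin chr11:123799885-124000055, with 12 OR genes including OR4D5 and OR6T1, had -1.29, -1.32, -1.40 and -1.45. At 1q44 the bin chr1:247999659-248195022, with 12 OR genes including OR11L1 and OR2W3, had -1.19, -1.26, -1.72 and -1.51. OR51E1 and OR51E2, class I receptors best known from prostate, start in the bin chr11:4600074-4799790, which had -0.994, -0.951, -0.867 and -0.792.

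Between Grow and OIS, 6 of the 49 OR bins changed sign. In OIS 4 of them were in A and no longer in B, where 9.49% of all kept bins made this change. The other 2 went from A to B, a change made by 0.678% of all kept bins. At 11p15.4 the bin chr11:6196133-6397354 holds OR52W1 and starts of CCKBR, the receptor of gastrin and cholecystokinin, and CAVIN3, a coat protein of caveolae. Its scores were -0.520 in Grow, -0.483 in Grow-shA1, 0.131 in OIS and -0.0364 in OIS-shA1. The bin chr11:6596440-6799706, with OR2AG2 and the ILK, TPP1 and DCHS1 genes, had -0.00114, 0.107, 0.277 and 0.365, so its Grow value lay at the boundary. At 11q11-q12 the bin chr11:57598096-57802002 (OR5BA1P, OR5AZ1P, OR5BD1P, OR9Q1 and OR6Q1) had -0.124, -0.0836, 0.239 and 0.665. The bin chr11:59397281-59598615, which holds OR10V1 and STX3, a syntaxin of the plasma membrane, had -0.471, -0.353, 0.124 and 0.0732. Each of these 4 bins was higher in OIS than in Grow and Grow-shA1.

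The 2 bins that went the other way were rich in OR genes. The bin chr11:5200307-5398329 holds 7 OR genes, of which the first is OR51V1, and had scores of 0.309 in Grow, 0.503 in Grow-shA1, -0.213 in OIS and -0.120 in OIS-shA1. It was the only OR bin of 11p15.4 in A in Grow. The bin chr11:57999293-58199681, which holds OR10W1, OR10Q2P, OR5BC1P, OR5B19P and OR5B10P among others, had 0.169, 0.577, -0.344 and 0.722. Its OIS value was the only one below 0. The next bin before it, chr11:57802003-57999292 with OR9I1 and OR9L1P, had -0.310, -0.137, -0.256 and 0.331. With a component per arm, 3 of the 49 OR bins changed sign. By that score the bin with OR10W1 was already in B in Grow (-0.163), and the bins with OR9Q1 (-0.00497) and OR10V1 (-0.0284) were still in B in OIS.

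The other comparisons had fewer sign changes among OR bins. In OIS-shA1 against OIS, 2 OR bins moved to A (1.54% of all kept bins did) and 1 moved to B (3.14%). In Grow-shA1 against Grow, 1 moved to A (1.82%) and 0 moved to B (1.50%). In OIS-shA1 against Grow-shA1, 3 moved to A (8.03%) and 1 moved to B (1.13%). These comparisons share maps with each other and are not independent.

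Contacts inside the blocks were next compared. The deposited score of a pair is relative to the mean at its distance, so 0 stands for the typical contact at that distance, and scores are on a log-like scale whose base is not given in the sources used here. Values are therefore given as scores and differences of scores, never as folds. Beside each block stand the other B-B pairs of the chromosome, outside the blocks and weighted to the same distances. The 5 blocks differed in sign between Grow and OIS. At 11p15.4 (171 pairs) the mean contact was 0.242 in Grow, 0.179 in Grow-shA1, 0.473 in OIS and 0.324 in OIS-shA1, highest in OIS. The difference OIS minus Grow was 0.231 (SD 0.372 over pairs), with 122 of 171 pairs higher in OIS, while the other B-B pairs were lower by 0.269 (0.692 in Grow and 0.423 in OIS). OIS-shA1 minus OIS was -0.148 at 11p15.4 and 0.155 over the other B-B pairs. The difference OIS minus Grow at 11p15.4 was 0.121 with scores divided by the SD at each distance and 0.389 with all maps centred on a common mean.

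The difference at 11p15.4 grew with distance. Pairs up to 0.5 Mb apart differed by -0.0855 between OIS and Grow, pairs 0.5 to 1 Mb apart by 0.116, pairs 1 to 2 Mb apart by 0.324 and pairs further apart by 0.497. Other B-B pairs were lower in OIS in all 4 classes, by 0.284, 0.323, 0.254 and 0.222. Among pairs of OR bins alone (105 pairs) the means at 11p15.4 were 0.307, 0.265, 0.576 and 0.421, and 81 of the 105 pairs were higher in OIS than in Grow. OR bins paired with the only A bin of the block that holds no OR gene, the bin of SMPD1 (15 pairs), had means of -0.390, -0.552, -0.553 and -0.609. Other A-B pairs at these distances were lower in each map, at -0.547, -0.601, -0.679 and -0.701.

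At 1q44 the difference between Grow and OIS had the opposite sign. Its 15 pairs had a mean of 0.987 in Grow, 0.817 in Grow-shA1, 0.147 in OIS and 0.318 in OIS-shA1. OIS minus Grow was -0.840 (SD 0.157), with 0 of 15 pairs higher in OIS, and the other B-B pairs of chromosome 1 were lower by 0.489. With common centring of the maps it was -0.401. OIS-shA1 minus OIS was 0.171, with 13 of 15 pairs higher. At 11p11 (136 pairs) the means were 0.307, 0.198, -0.0679 and 0.0649. The difference OIS minus Grow was -0.375 there (SD 0.290), with 15 of 136 pairs higher, and the other B-B pairs differed by -0.271. It was -0.220 with common centring. OR-OR pairs of 11p11 (21 pairs) kept positive means of 0.752, 0.689, 0.501 and 0.701.

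At 11q24 (15 pairs) the mean contact was 0.322 in Grow, 0.116 in Grow-shA1, 0.203 in OIS and -0.193 in OIS-shA1, the lowest. OIS-shA1 minus OIS was -0.397 (SD 0.147) and Grow-shA1 minus Grow was -0.206, with 0 of 15 pairs higher in either, so both shA1 maps lay below the maps without the hairpin. Other B-B pairs at the same distances were at 0.580, 0.558, 0.281 and 0.421. The 11q11-q12 block holds bins of both compartments, and other pairs at its distances had 0.737 (B-B) and -0.593 (A-B) in Grow. Its own 325 pairs had means of -0.140, -0.192, -0.266 and -0.149, all below 0. OIS minus Grow was -0.126 (SD 0.481, 145 of 325 pairs higher). It became 0.0484 when all maps were centred on a common mean, and -0.0168 without the bins within 1 Mb of the centromere gap, so its sign is not settled. Its OR bins paired with the A bins without OR genes in the same block (51 pairs) had -0.751 in Grow, -0.765 in Grow-shA1, -1.16 in OIS and -0.941 in OIS-shA1. Other A-B pairs of the chromosome at these distances had -0.660, -0.717, -0.823 and -0.826.

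**Figure D2:**
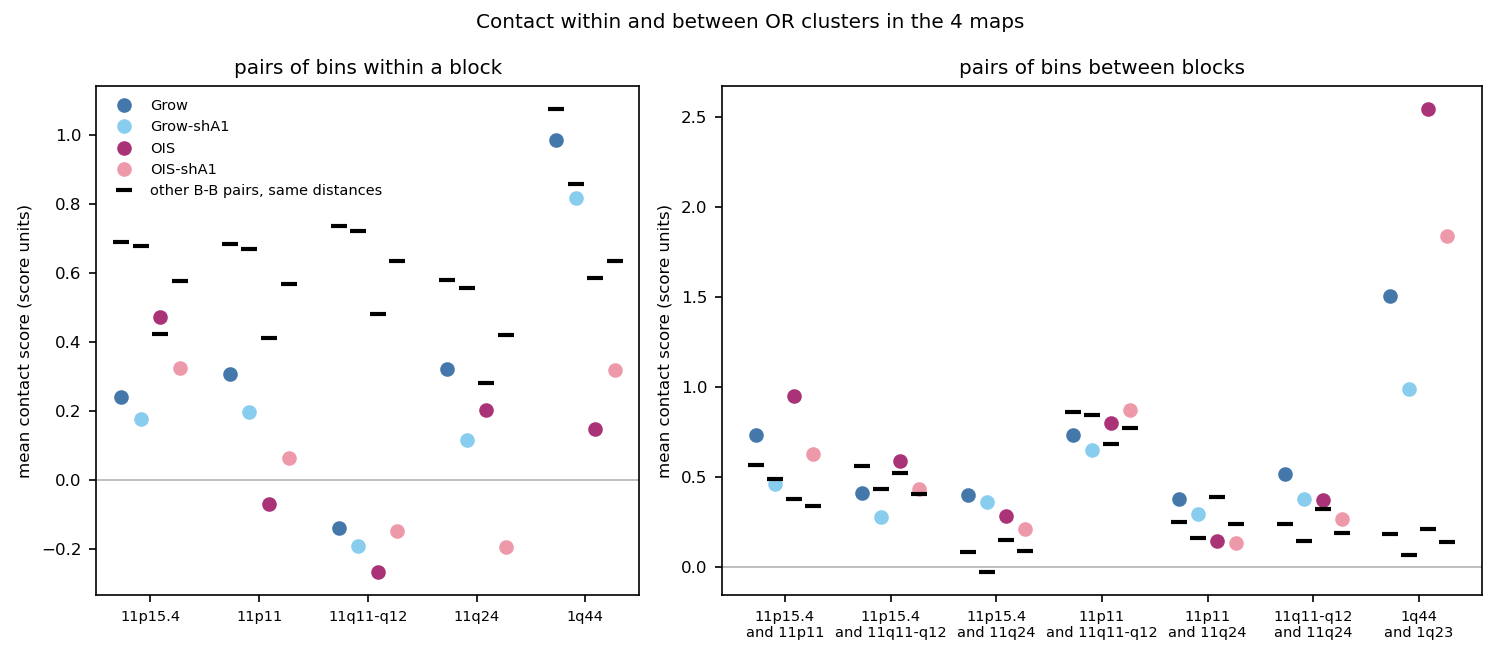
Mean contact score (vertical axis) of pairs within each block, between blocks of chromosome 11 and between the OR clusters at 1q44 and 1q23, with 1 colour per map, and black dashes for the other B-B pairs at the same distances. The 11p15.4 block and its pairs with 11p11 and 11q11-q12 were highest in OIS, 1q44 was lowest in OIS within itself, and 1q44 with 1q23 reached 2.54 in OIS.

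Separate OR blocks had more contact than other B-B pairs at their distances in 4 of the 6 block pairs in Grow, in 3 in Grow-shA1, in 5 in OIS and in 5 in OIS-shA1. The pairs 11p15.4 with 11p11 (305 pairs listed in all maps) had means of 0.732 in Grow, 0.461 in Grow-shA1, 0.952 in OIS and 0.628 in OIS-shA1. Their OIS value was the highest and both shA1 values lay below the matching maps without the hairpin. OIS minus Grow was 0.220 (SD 0.503), with 214 of 305 pairs higher, and other B-B pairs went from 0.566 to 0.380. With scores divided by the SD at each distance this difference was 0.120. The pairs 11p15.4 with 11q11-q12 (463 pairs) had 0.412, 0.279, 0.589 and 0.435, with 308 pairs higher in OIS than in Grow. The pairs 11p11 with 11q11-q12 (439 pairs) had 0.732, 0.653, 0.802 and 0.870, and their OIS minus Grow of 0.0695 became -0.0553 with scores divided by the SD at each distance.

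Block pairs with 11q24 went the other way between Grow and OIS. The pairs 11p15.4 with 11q24 (105 pairs) had 0.400 in Grow, 0.364 in Grow-shA1, 0.285 in OIS and 0.212 in OIS-shA1. The pairs 11p11 with 11q24 (80 pairs) had 0.377, 0.295, 0.144 and 0.135, and 11q11-q12 with 11q24 (142 pairs) had 0.517, 0.378, 0.373 and 0.269. Differences OIS minus Grow were -0.115, -0.234 and -0.144 in these 3 sets, where the other B-B pairs differed by 0.0658, 0.139 and 0.0812. They were -0.320, -0.591 and -0.483 with scores divided by the SD at each distance, and the second and the third were -0.112 and -0.0886 without the bins near the centromere gap. So 11q24 was the block that had less contact with the other OR blocks in OIS, while other B-B pairs at those distances had more.

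The OR bins of 1q44 had high contact with another OR cluster 89.2 Mb away. The cluster at 1q23 (chr1:158368312-159569017, 31 OR genes in 5 kept bins, all in B) lies outside the 5 blocks and was looked at after the segment values given further on were seen. Its 25 pairs with the OR bins of 1q44 had a mean of 1.51 in Grow, 0.991 in Grow-shA1, 2.54 in OIS and 1.84 in OIS-shA1 (SD 0.326, 0.324, 0.311 and 0.434). All 25 pairs were higher in OIS than in Grow, by 1.03 on average (SD 0.410). OIS-shA1 minus OIS was -0.702, with 2 of 25 pairs higher, and Grow-shA1 minus Grow was -0.516, with 1 of 25 higher. OIS-shA1 minus Grow-shA1 was 0.848, with 23 of 25 higher. Other B-B pairs of chromosome 1 at this distance had 0.183, 0.0678, 0.215 and 0.139.

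The bins around 1q23 without OR genes had weaker contact with 1q44. Of 27 such bins within 3 Mb of the cluster 63.0% were in B, while all bins of the cluster were. The part of this difference was not tested. Of their 135 pairs with 1q44, 76 were listed in all maps. Their means were 0.587 in Grow, 0.334 in Grow-shA1, 0.920 in OIS and 0.718 in OIS-shA1, and 53 of the 76 were higher in OIS than in Grow. Contact inside the 1q23 cluster itself (10 pairs) was 1.07, 0.796, 0.971 and 1.08, so it was not higher in OIS. Map values cannot separate true contact from any reads shared between similar sequences of the 2 clusters. How alike the sequences are, and the part of such reads, was not tested.

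Within a block the OR bins form runs of neighbouring bins, and contact varied widely from run to run, both inside runs and between them. There were 11 such runs, 10 of them on chromosome 11, with 2 to 11 bins each. The first run of 11q11-q12 (chr11:55000111-57000585, 10 bins with 105 OR genes, mean score -1.38 in Grow) and the third run of 11p11 (chr11:51199898-51576264, 2 bins with 9 OR genes) lie on either side of the centromere gap, chr11:51576265-54694579. Their 20 pairs had a mean of 3.43 in Grow, 3.30 in Grow-shA1, 3.28 in OIS and 3.62 in OIS-shA1, where other B-B pairs had 0.755 in Grow. The gap counts as distance although the assembly holds little of its sequence, and both runs hold OR4 genes that are close copies, so this value is uncertain. The first run of 11q11-q12 also had high contact with the first run of 11p11 (30 pairs, 1.54, 1.41, 1.52 and 1.53) and with the second (20 pairs, 1.47, 1.49, 1.50 and 1.65), with little spread between maps.

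Inside 11q11-q12 the second run stood apart. It covers chr11:57598096-58399988 with 4 bins and 26 OR genes, and its mean compartment score was 0.0206 in Grow, 0.225 in Grow-shA1, 0.0769 in OIS and 0.630 in OIS-shA1. In Grow 2 of its 4 bins were in A, while the whole first run was in B. Other A-B pairs had -0.593 in Grow at the distances of the whole block. Other B-B pairs had 0.777 in Grow at the distances between these runs. The 40 pairs of the second run with the first had means of -0.804, -0.987, -0.846 and -1.02. The 6 pairs inside the second run had 1.11, 1.21, 0.941 and 1.14. With the first run of 11p11 (12 pairs) it had -0.362, -0.519, 0.220 and -0.345, so OIS alone was above 0. The 45 pairs inside the first run had 0.151, 0.118, -0.214 and 0.196, again with OIS alone on its side of 0. At 11p15.4 the first run (chr11:4199603-6397354, 11 bins with 102 OR genes) had contact with the first run of 11p11 (33 pairs) of 1.13, 0.775, 1.48 and 0.989, with OIS highest.

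**Figure D3:**
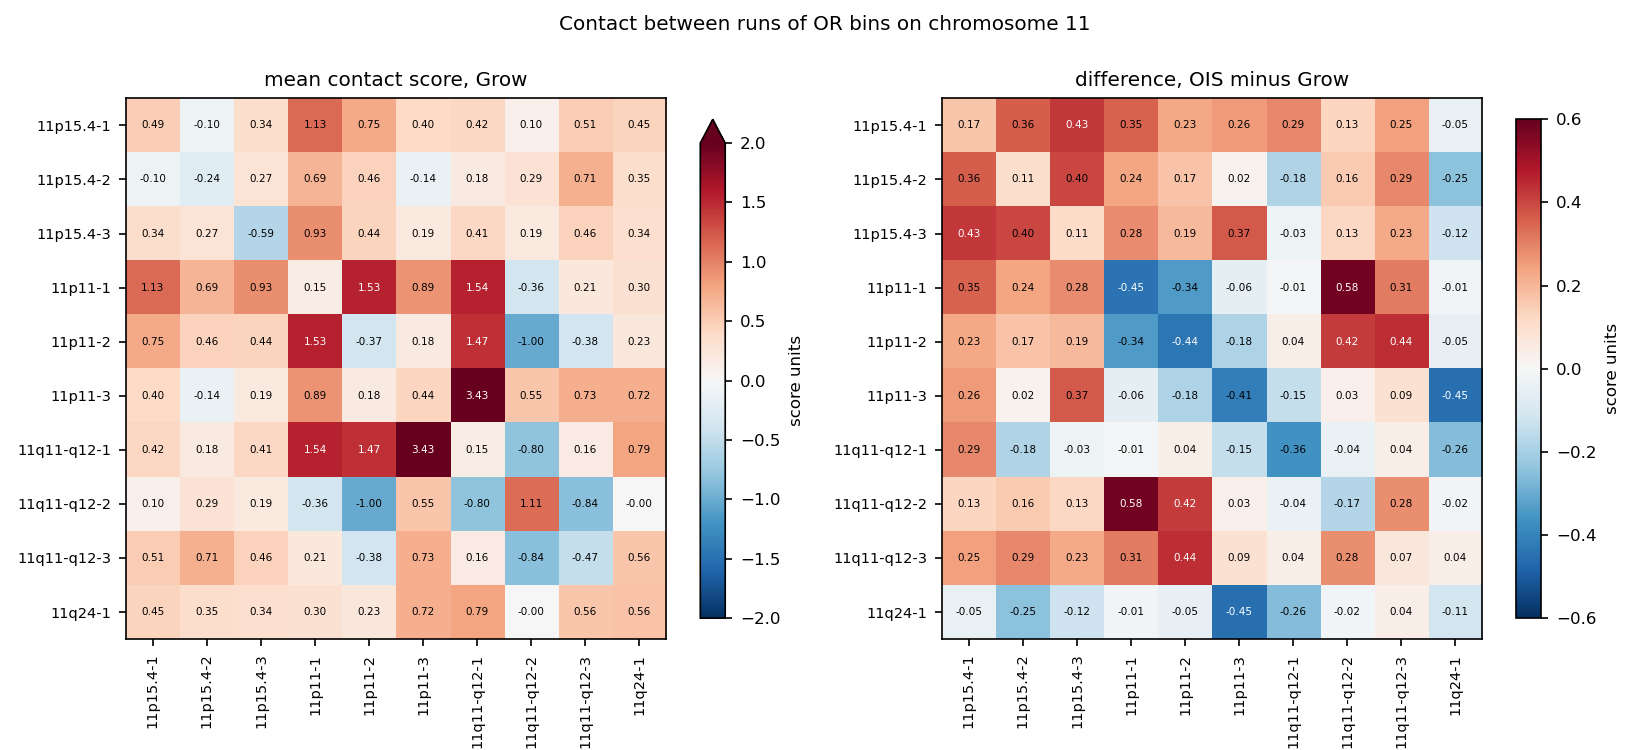
Mean contact score between the runs of OR bins on chromosome 11, as heat maps with the runs in genome order on both axes, for Grow (left) and for OIS minus Grow (right). In Grow the highest square, 3.43, joins the runs on either side of the centromere gap and lies above the upper end of the colour scale, and the second run of 11q11-q12 has values below 0 with the first. In OIS minus Grow the first run of 11p15.4 is higher with the first run of 11p11.

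Contacts of OR bins with the rest of their chromosome were taken from pairs over 2 Mb apart, with partners outside the blocks sorted by their compartment in Grow. Distal contact of the 49 OR bins with B bins averaged 0.669 ± 0.278 (SD over bins) in Grow, 0.571 ± 0.291 in Grow-shA1, 0.580 ± 0.257 in OIS and 0.445 ± 0.270 in OIS-shA1. The Grow mean was the highest and the OIS-shA1 mean the lowest, with SDs over bins that overlap. B bins of chromosome 11 outside the blocks had 0.621, 0.569, 0.478 and 0.430. In OIS minus Grow, contact with B bins was lower by at least 0.2 score units in 9 of the 49 OR bins, while this held for 26.3% of all kept bins. No OR bin was higher by 0.2, against 4.38% of all kept bins. The mean difference of the OR bins was -0.0895 (SD 0.103) and that of all kept bins -0.0943. The mean of the OR bins was 0.00668 with all maps centred on a common mean, 0.0545 with partners sorted by the compartments of each map, and -0.214 with scores divided by the SD at each distance, so its sign is not settled.

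The shA1 maps were lower in every OR bin. OIS-shA1 minus OIS averaged -0.135 (SD 0.0503), with 0 of 49 OR bins above 0, against a mean of -0.0422 over all kept bins. It was lower by 0.2 or more in 4 OR bins (background 9.03%) and higher in 0 (3.32%). Grow-shA1 minus Grow averaged -0.0977, also with 0 of 49 above 0, and 1 OR bin was lower (4.20%) and 0 higher (0.472%) by 0.2 or more. Its mean was -0.0392 with common centring. Most other bins were lower too. Of the 987 kept bins of chromosome 1, 269 were above 0 in OIS-shA1 minus OIS and 168 in Grow-shA1 minus Grow. Of 17 block bins with other protein-coding genes but no OR gene, 2 and 1 were above 0. Grow-shA1 minus Grow averaged -0.0602 over the chromosome 1 bins and -0.0961 over these 17. The listed share was lower in the shA1 maps than in the matching maps without the hairpin, and its part in these differences was not tested. OIS-shA1 minus Grow-shA1 averaged -0.126, with 10 OR bins lower by 0.2 or more (23.3%) and 0 higher (6.04%).

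Distal contact with A bins was below 0 for the OR bins in each map. It averaged -0.394 in Grow, -0.486 in Grow-shA1, -0.604 in OIS and -0.626 in OIS-shA1, lower in both OIS maps. B bins of chromosome 11 outside the blocks had -0.327, -0.401, -0.538 and -0.519. OIS minus Grow averaged -0.210 (SD 0.161) in the OR bins, with 2 of 49 above 0. It was lower by at least 0.2 in 22 of the 49 OR bins and higher in 0, where 25.7% and 5.72% of all kept bins passed these limits. Of the 308 other B bins of chromosome 11, 138 were lower and 8 higher by 0.2 or more, a share like that of the OR bins. The mean was 0.0397 when unlisted pairs were counted as 0 and -0.0199 with partners sorted by the compartments of each map, so neither its direction nor its size is settled. OIS-shA1 minus OIS averaged -0.0224, or 0.0129 with common centring, with 3 OR bins lower (5.20%) and 1 higher (7.70%) by 0.2 or more. Grow-shA1 minus Grow averaged -0.0915, with 1 OR bin lower (3.96%) and 0 higher (0.185%). In OIS-shA1 against Grow-shA1, 16 OR bins were lower (20.6%) and 0 were higher (8.78%). The mean of this comparison was -0.141, but 0.0465 with unlisted pairs counted as 0 and 0.0148 with the compartments of each map.

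The blocks differed in their distal contacts. With B bins, 11q24 had a mean of 0.875 in Grow, 0.785 in Grow-shA1, 0.595 in OIS and 0.432 in OIS-shA1, the widest range of the 5 blocks. All 5 of its OR bins were lower in OIS than in Grow, by 0.233 to 0.351. The 11p15.4 block had 0.586, 0.516, 0.541 and 0.380, with a difference of only -0.0454 between OIS and Grow. The 1q44 block had the highest means, with 0.908, 0.840, 0.790 and 0.702, and 11p11 had 0.770, 0.645, 0.650 and 0.554. The 11q11-q12 block was the lowest in Grow, with 0.570, 0.449, 0.519 and 0.386. With A bins, 1q44 differed most, from -0.356 in Grow and -0.495 in Grow-shA1 to -0.870 in OIS and -0.920 in OIS-shA1, with all 5 OR bins lower by at least 0.2 in OIS than in Grow.

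**Figure D4:**
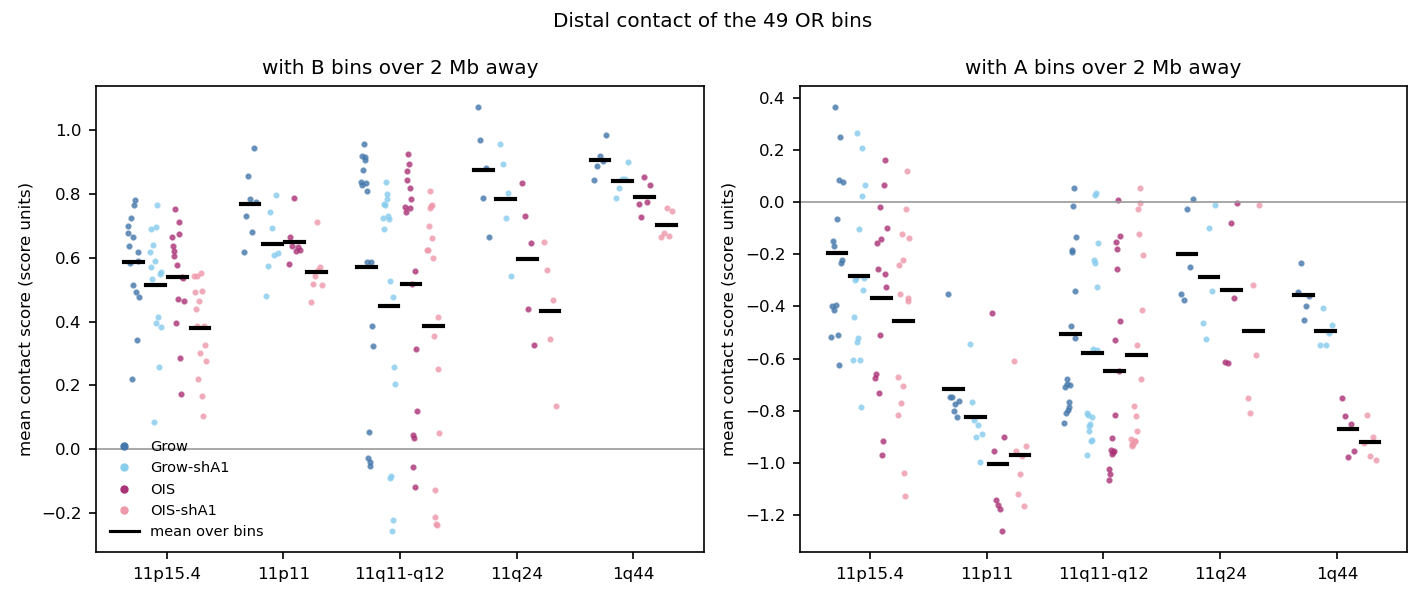
Mean distal contact score (vertical axis) of each of the 49 OR bins with B bins and with A bins outside the blocks, in the 4 maps, by block. Each point is an OR bin and each black bar the mean of a block. Contact with B bins at 11q24 goes from 0.875 in Grow to 0.595 in OIS, and contact with A bins at 1q44 from -0.356 to -0.870.

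The 3 largest increases and decreases of single OR bins in contact with B bins, OIS minus Grow, fell in different blocks. The bin chr11:5200307-5398329 (OR51V1), which went from A to B, had 0.220 in Grow, 0.0838 in Grow-shA1, 0.397 in OIS and 0.220 in OIS-shA1, and its contact with A bins was 0.364, 0.264, -0.0198 and -0.122. The bin with OR10W1, the other one that went from A to B, had -0.0538, -0.257, 0.0353 and -0.234 with B bins. The third was the neighbour of the OR51V1 bin, chr11:5002112-5200306 (OR51L1, OR51P1P, OR52J2P, OR52J3 and OR52E2), with 0.726, 0.640, 0.753 and 0.543. All 3 were highest in OIS. The largest decreases were at chr11:124000056-124201351 (OR10D1P, OR10D3, OR8F1P, OR8G3P and OR8G2P), with 0.789, 0.726, 0.438 and 0.345. Next came chr11:124399010-124601150 (OR8A3P, OR8B12, OR8A1 and OR8Q1P), with 0.664, 0.544, 0.328 and 0.137. The third was chr11:51199898-51395960 with OR4A6P, beside the centromere gap, with 0.943, 0.797, 0.633 and 0.570. In each of these bins both OIS maps lay below both growing maps.

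Segments of 5 Mb along each chromosome show where these contacts lay. The OR bins of 1q44 had their highest contact with 235 to 240 Mb, close to the block, at 1.93 in Grow, 1.83 in Grow-shA1, 2.08 in OIS and 1.84 in OIS-shA1. Of 32 segments, the largest increase from Grow to OIS was with 155 to 160 Mb, which holds the 1q23 cluster, at 0.984, 0.584, 1.70 and 1.20. The increase was not limited to that segment. OIS minus Grow was 0.589 with 150 to 155 Mb, 0.505 with 160 to 165 Mb and 0.325 with 165 to 170 Mb. It was -0.0695 with 170 to 175 Mb and 0.382 with 175 to 180 Mb. The largest decrease was with 195 to 200 Mb, at 0.719, 0.768, -0.271 and 0.171. For 11p15.4 (23 segments) the highest contact in Grow was with 20 to 25 Mb, at 1.04, 1.02, 0.822 and 0.603, and the lowest was with the 3 bins of 0 to 5 Mb outside the block and over 2 Mb away, which were all in A in Grow, at -1.04, -1.06, -1.66 and -1.97. Its largest increase in OIS was with 40 to 45 Mb, at 0.777, 0.531, 0.964 and 0.543. For 11q24 the highest contact was with 95 to 100 Mb, at 1.61, 1.44, 1.08 and 0.901, and this was also its largest decrease.

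**Figure D5:**
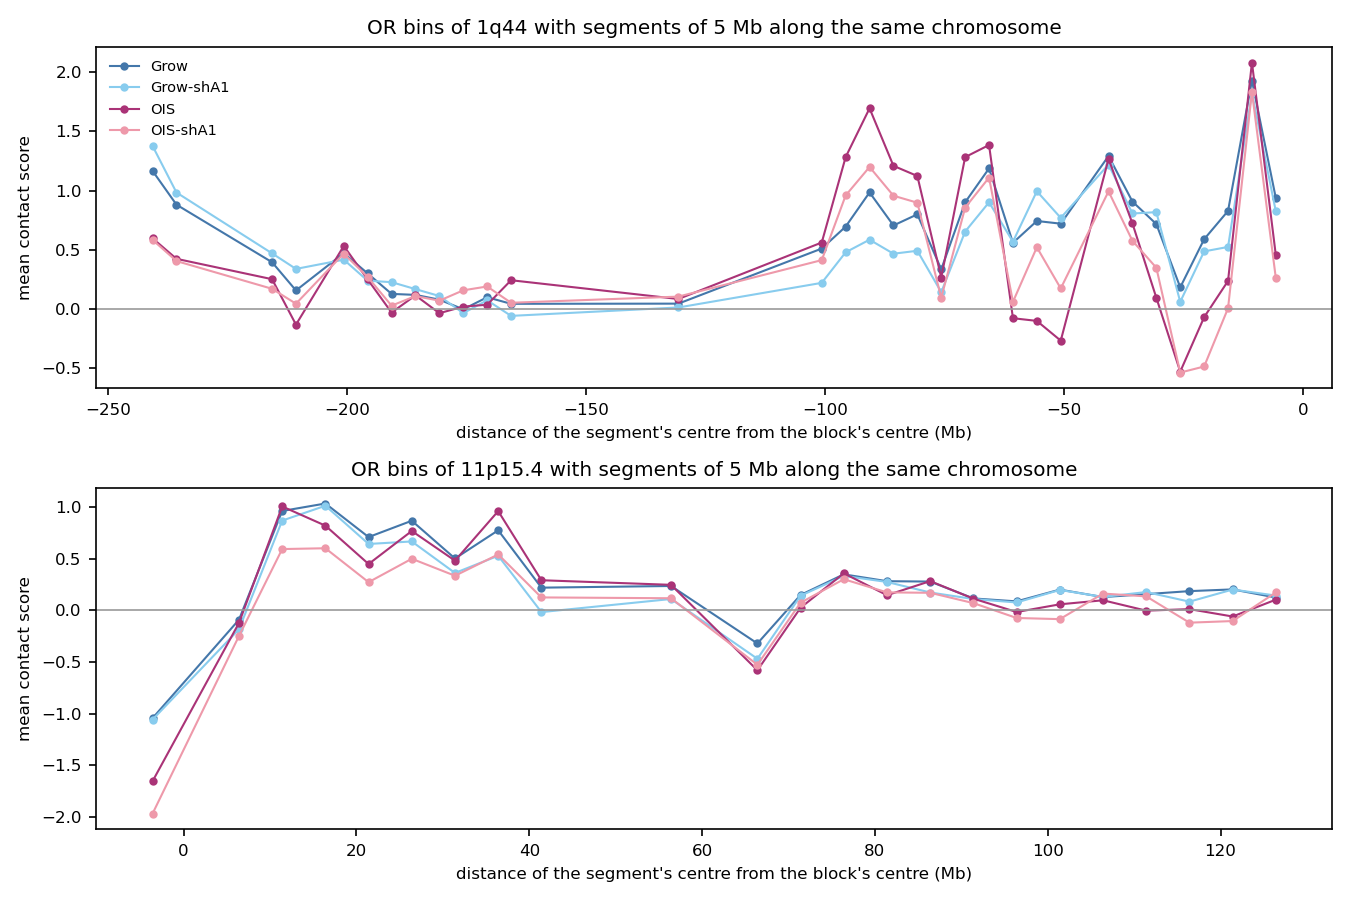
Mean contact score (vertical axis) of the OR bins of 1q44 and of 11p15.4 with 5-Mb segments of their chromosome, against the distance of the segment from the centre of the block in Mb (horizontal axis), with 1 line per map. For 1q44 the OIS line reaches 1.70 at the segment that holds the 1q23 cluster, where Grow has 0.984. The segments on either side of it were also higher in OIS than in Grow.

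Genes of other families in and beside the OR bins show how far the B state of the clusters extends. Of 37 listed neighbours, 20 start in OR bins and the rest in bins without OR genes, 27 bins in all. Of these 27 bins, 5 were in A in Grow and 10 in OIS, since 5 bins in B moved to A and 0 moved the other way. The same changes were made by 9.49% and 0.678% of all kept bins, and 80 of the 308 other B bins of chromosome 11 moved to A. The TRIM genes at 11p15.4 encode ubiquitin ligases of antiviral defence and lie among the OR51, OR52 and OR56 genes. TRIM21, the cytosolic antibody receptor, lay in a bin with scores of -1.17 in Grow, -1.13 in Grow-shA1, -0.979 in OIS and -1.01 in OIS-shA1. TRIM5, a restriction factor of retroviruses, had -1.17, -1.08, -1.28 and -1.21, and the shared bin of TRIM6, TRIM34 and TRIM22 had -0.753, -0.597, -0.618 and -0.592. TRIM5 was placed by its annotated start, and its annotated span reaches into that shared bin. All these bins were in B in each map. So was the bin of NLRP3, the inflammasome sensor at the start of the 1q44 block, with -0.909, -1.04, -1.44 and -1.13, and that of FOLH1, a folate hydrolase gene at 11p11, with -1.32, -1.27, -1.48 and -1.39.

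Other neighbours lay in A or crossed into it. SMPD1, which encodes acid sphingomyelinase, lay in a bin of 11p15.4 with scores of 0.711 in Grow, 0.769 in Grow-shA1, 0.939 in OIS and 0.892 in OIS-shA1. CTNND1, which encodes p120 catenin and lies before the second run of 11q11-q12, had 1.03, 1.07, 1.11 and 1.06. TNKS1BP1 and SSRP1, the second a subunit of the histone chaperone FACT, shared a bin with 0.151, 0.255, 0.849 and 0.827, where both OIS maps were higher. At the edge of 11q24, the bin chr11:123398218-123600136 with SCN3B, a sodium channel subunit gene, had -0.794, -0.791, 0.209 and 0.267. GRAMD1B, a gene of cholesterol transport next to it, had -0.138, -0.0717, 0.632 and 0.839. The 5 OR bins of 11q24 beside them averaged -1.14 in Grow and -0.992 in OIS and stayed in B.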

How the data were processed

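In-nucleus Hi-C with HindIII was done in IMR90 cells. The authors mapped reads to hg19 with HiC-Pro, pooled the replicates, binned and corrected the contacts with diffHic and iterative correction, and divided out distance. The deposited score of each listed pair of bins is the result of these steps, on a log-like scale with a base not given in the sources used here. Read counts per map were not analysed here. Only pairs on the same chromosome are listed, and missing pairs were left out.

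Bins with at least 50% of their pairs listed in each map were kept (13567 of 14310). OR genes were assigned to bins by their start in a GENCODE annotation of GRCh37. For compartment scores, unlisted pairs were set to 0, and the first principal component was oriented by the number of protein-coding genes outside OR families in Grow and, in the other maps, to Grow. Distal contact was the mean score of pairs over 2 Mb apart, with at least 10 such pairs per bin, and a difference of 0.2 score units was the limit for counting bins. OIS was set against Grow with and without shA1, and shA1 against no hairpin in each state. With 1 map per condition no test was possible and no p-value was computed. Alternatives changed the limits on extreme values, the scaling and centring of maps, the treatment of unlisted pairs, the bins kept, the compartment definition, the distance limit, the definition of OR bins and the blocks included.

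Named bins were the one with the most OR genes in each block, the OR bins that changed sign between Grow and OIS, the 3 largest increases and 3 largest decreases of distal contact with B bins, and the bins of 37 listed neighbours, with up to 5 OR genes named in each. Members and lists were chosen with earlier results of these data known. The scripts were tested on simulated data and used Python 3.11.15, numpy 2.4.6, pandas 2.3.3 and matplotlib 3.10.9.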

Additional observations from a re-analysis of the deposited data

Results flagged for a closer look

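Contact within the 11q11-q12 block had opposite signs in OIS minus Grow, which was -0.126 over its 325 pairs, and in OIS-shA1 minus Grow-shA1, which was 0.0435. The difference between them was not tested, since each map is a single pooled one, and neither value exceeds the spread over pairs. With all maps centred on a common mean both were above 0, at 0.0484 and 0.162, and without the bins within 1 Mb of the centromere gap they were -0.0168 and 0.0544, so the sign difference is not settled.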

How the results depend on the processing

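No paired analysis was possible because the replicates of each shA1 condition are pooled in 1 map, and for the same reason leaving out a replicate was not run. Over the means of all blocks, 276 alternative values stayed within the spread over blocks of the main value and 24 did not. This spread is wide, so large shifts can stay inside it. Within-block contact for OIS minus Grow ran from -0.840 at 1q44 to 0.231 at 11p15.4. With all maps centred on a common mean these were -0.401 and 0.389, and no alternative of the within-block mean was counted as outside the spread for this comparison. Below, reversed marks a changed sign where the main difference was at least 0.1, and smaller differences also changed sign. With scores divided by the SD at each distance, between-block contact was -0.205 for OIS minus Grow and -0.212 for Grow-shA1 minus Grow. Distal contact with B bins was then -0.214 (OIS minus Grow), -0.0973 (OIS-shA1 minus OIS) and -0.144 (Grow-shA1 minus Grow). With all maps centred on a common mean, within-block contact was -0.0515 and distal contact with A bins -0.0307 for Grow-shA1 minus Grow, and distal contact with B bins was 0.00668, -0.0946 and -0.0392 for the same 3 comparisons. With unlisted pairs counted as 0, distal contact with A bins was 0.0397 for OIS minus Grow and 0.0465 for OIS-shA1 minus Grow-shA1, both reversed, and 0.0111 for Grow-shA1 minus Grow. Using only pairs listed in each map, the last was -0.0485. With the compartments of each map for its partners, distal contact with A bins was -0.0199 for OIS minus Grow and 0.0148, reversed, for OIS-shA1 minus Grow-shA1, and distal contact with B bins was 0.0545 for OIS minus Grow and -0.192 for OIS-shA1 minus OIS. The number of OR bins that changed compartment between Grow and OIS was 3 with a component per arm, 3 without 11p15.4 and 3 without 11q11-q12. Without 11p15.4 it was 0 for Grow-shA1 minus Grow, and without 11q11-q12 it was 1 for OIS-shA1 minus OIS and 1 for OIS-shA1 minus Grow-shA1. The cause of these shifts was not tested. Across all maps depth can be compared only by the share of listed pairs, which on chromosome 1 was 84.4% in Grow and 70.4% in OIS-shA1.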
